A study of Mus musculus with 9 samples.

Results

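GABA signalling was followed through 26 genes in the hippocampus of mice given an inhibitor of miR-134. The genes were taken from the deposited count table by symbol, 26 of 54532, and cover subunits of GABAA and GABAB receptors, the enzymes and transporters of GABA, proteins of the inhibitory postsynapse and the main chloride transporters of neurons. All 26 passed the filter on low counts, which left 19782 genes to test.

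All mice were of the N4 Ube3am-/p+ line, a model of Angelman syndrome that carries a mutation in the maternal copy of Ube3a and had been backcrossed to obtain mice prone to sound-evoked seizures. No wild-type mice are among these libraries, so both groups carry the mutation. At P21 (postnatal day 21) the mice received an injection into a brain ventricle of Ant-134, an antisense oligonucleotide against miR-134 (n = 5), or of Scr, a scrambled oligonucleotide (n = 4). Both groups went through audiogenic seizure tests at P22, P24 and P26, and the tissue was taken 24 h after the last of them. Each library holds poly-A RNA of the hippocampus on the injected side of a single mouse, so the spread within a group is that between animals that lived through the tests. In such tests the study reported less severe seizures in Ant-134 than in Scr mice, and a tendency to better survival that was not significant. Oligonucleotide, seizure history and survival therefore cannot be told apart in the differences between these groups.

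GABA is the main inhibitory transmitter of the mature brain. It is made from glutamate, loaded into vesicles, released onto ligand-gated chloride channels (GABAA receptors) and G protein-coupled receptors (GABAB receptors), cleared by membrane transporters and broken down in mitochondria. In the hippocampus it is released by interneurons, and its effect on a cell depends on the chloride gradient that KCC2 and NKCC1 set. Loss of GABA signalling is a classical route to seizures, and drugs that act on its receptors, transporters and breakdown enzyme are used against epilepsy.

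The treatment was directed at miR-134-5p, whose mature sequence in RefSeq (GRCm38.p6, chr12:109734145-109734166, plus strand, 22 bases) is given first with its seed, bases 2 to 8, in capitals. Poly-A libraries do not measure the mature miRNA.

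miR-134-5p: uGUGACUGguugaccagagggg

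Matches to this seed were searched on the transcribed strand in the longest annotated 3′ UTR of each gene (GENCODE M21, GRCm38) as the letters CAGTCAC, which pair with bases 2 to 8, or AGTCACA, which pair with bases 2 to 7 and end in A. The motifs overlap, and where both occur together they form a single 8-base site. Of the 26 genes, 6 (23.1%) held at least 1 match, against 2973 of 15278 tested genes with a 3′ UTR (19.5%). These were Gabra3, Gabrg1, Gabrg3, Gabrq and Gad2 with 1 match each and Gabrb1 with 4, in a 3′ UTR of 12228 bases. The windows shown are those of Gabrg3, the only 8-base site among these genes, of Gabrb1, the gene with the most matches, and of Gad2, the only gene outside the receptor families. Capitals mark the matched bases.

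Gabrg3, 8-base site: tctaaccttggCAGTCACAggtaaccatca
Gabrb1, first match: gctaacaattatAGTCACAattgaaaagga
Gabrb1, second match: taagttgttttCAGTCACtgtggctatttg
Gabrb1, next match: acctttagacggAGTCACAcctcacaatat
Gabrb1, last match: acagctccccaCAGTCACggggctgtcctt
Gad2: atgataactttaAGTCACAgatgaacagat

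All of these windows lie in 3′ UTR. In GRCm38 the Gabrg3 window is at chr7:56718508-56718537 on the minus strand, and the Gad2 window at chr2:22692008-22692037 on the plus strand. The Gabrb1 windows are at chr5:72138568-72138597, chr5:72140954-72140983, chr5:72144573-72144602 and chr5:72148773-72148802, all on the plus strand. An 8-base site was present in 4.44% of the tested genes with a 3′ UTR. A match describes the letters only, and neither motif was found in the 3′ UTR of Slc6a13 or Shisa7, the members with an unadjusted p below 0.05 in the comparison of the groups.

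The libraries held between 28583298 and 41978113 counts on genes, and 3 counts corresponded to between 0.0709 and 0.107 CPM (counts scaled to a common size after TMM normalization of the libraries). The study did not give the sex of these mice. Xist was between 541 and 687 CPM in 3 libraries, Ant-134 replicates 1 and 4 and Scr replicate 3, which also had Y-linked sums of at most 1.21 CPM, and Xist was at most 1.84 CPM in the other libraries. Ube3a, mutated in its maternal copy in all mice, was between 85.6 and 100.4 CPM in all libraries with no separation of the groups (two-sided exact permutation p = 0.563). Choroid plexus genes varied between libraries, with a summed level of 3396 CPM in Ant-134 replicate 1 and 2497 CPM in Scr replicate 3 and as low as 177 CPM in Ant-134 replicate 4. In a bulk tissue, fewer cells of a type and less RNA per cell cannot be told apart.

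Few of the GABA genes differed between the groups, and none did after adjustment. In edgeR's quasi-likelihood test over all genes, 1 member was higher in Ant-134 mice at an unadjusted p below 0.05 (Shisa7) and 1 was lower (Slc6a13, which encodes the GABA transporter GAT-2), together 7.69% of the 26. Over all genes tested 4.18% had such a p, 1.49% higher and 2.69% lower. After Benjamini-Hochberg adjustment over all genes 0 of the 26 and 0 of all 19782 genes passed in edgeR (0%), with 827 genes at an unadjusted p below 0.05, and the smallest adjusted p of a member was 0.998. With DESeq2 and no filter on low counts, 0 of the 26 passed adjustment and 16 genes did in the whole table, and with edgeR and no filter 14 genes did. Only Slc6a13 had groups that did not overlap, against 1.54% of all genes, 0.647% with Ant-134 higher and 0.895% with it lower.

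The differences were small and most were positive. A positive log2 fold change, higher in Ant-134, was found for 21 of the 26 genes with a median of 0.047, against 51.2% of all genes and a median of 0.0026. Of genes with a mean of at least 1 CPM 53.6% were positive, with a median of 0.0067. Medians of neuronal marker lists were 0.072 in CA1 pyramidal cells (5 of 8 positive) and 0.054 in dentate granule cells (6 of 11). They were 0.020 in CA3 pyramidal cells (4 of 7) and -0.017 in interneurons (7 of 14). The number of positive members was between 16, without Scr replicate 2, and 23 over the alternative analyses. Since the genes share the same 9 mice and several vary together, this count was given no test. Of the genes with a miR-134 match, Gabrq had a log2 fold change of 0.20 ± 0.55 (SE), Gabrg1 of 0.12 ± 0.095, Gabrb1 of 0.064 ± 0.052, Gabra3 of 0.042 ± 0.14, Gad2 of 0.039 ± 0.068 and Gabrg3 of 0.018 ± 0.064, and 0 of these 6 reached an unadjusted p below 0.05.

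**Figure D1:**
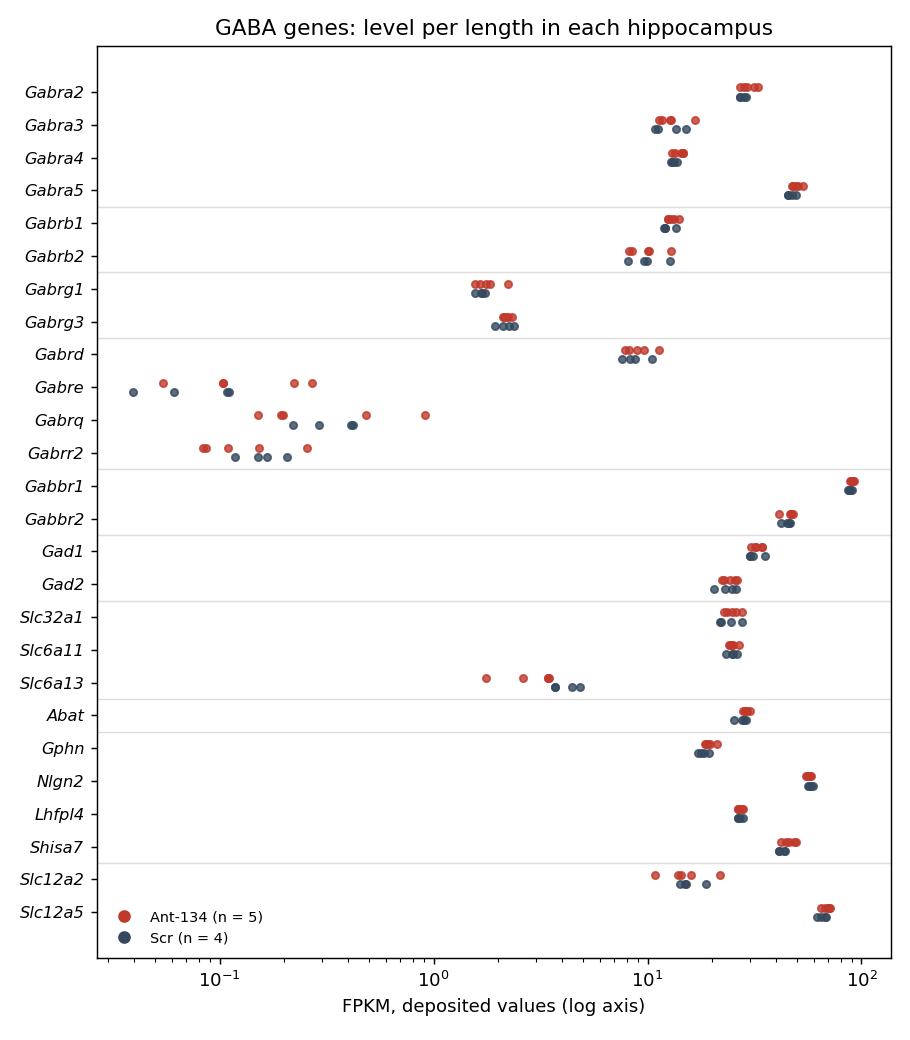
Deposited FPKM (log axis) of the 26 GABA genes, ordered by role, with 1 point for each of the 5 Ant-134 (red) and 4 Scr (dark) libraries. Gabbr1 lay highest and Gabre, Gabrq and Gabrr2 lowest, and the points of both groups overlap for every gene but Slc6a13.

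The level of each gene per transcript length, as deposited FPKM, set the frame for these differences. Gabbr1 was highest of the 26 with a mean of 89.3 FPKM over all 9 mice, followed by Slc12a5 (67.3 FPKM) and Nlgn2 (57.1 FPKM), and their ranges did not overlap. Among the GABAA subunits that could be followed here, α subunits ranged from Gabra5 at 48.6 FPKM to Gabra3 at 12.9 FPKM. The δ subunit stood at 9.01 FPKM, the γ subunits Gabrg3 and Gabrg1 at 2.19 and 1.74 FPKM, and θ, ρ2 and ε at 0.366, 0.148 and 0.120 FPKM. Other subunits of this family are not analysed here.

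The α subunits form the face of the receptor that binds GABA and, with γ, the site of benzodiazepines, and they place receptors at or outside the synapse. Gabra5, the subunit of extrasynaptic receptors typical of CA1 pyramidal cells, was the most abundant of them per length, between 45.4 and 53.6 FPKM in single mice. Gabra2 followed at 26.9 to 33.0 FPKM, with no overlap. Gabra4 (12.8 to 14.7 FPKM) and Gabra3 (10.8 to 16.7 FPKM) overlapped.

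In the 5 Ant-134 mice Gabra5 was at 144, 149, 152, 161 and 141 CPM, and in the 4 Scr mice at 142, 137, 137 and 149 CPM. The groups overlapped, with Ant-134 replicate 4 highest and Scr replicates 2 and 3 lowest. The log2 fold change was 0.082 ± 0.047 (SE), with a 95% interval of -0.019 to 0.18 and an unadjusted p of 0.102 in edgeR. Gabra2 (0.094 ± 0.057, exact permutation p = 0.214) and Gabra4 (0.082 ± 0.047, exact permutation p = 0.135) had log2 fold changes of similar size. Gabra3, the subunit of many early and monoaminergic circuits, had a log2 fold change of 0.042 ± 0.14. Its level was 66.0 CPM in Ant-134 replicate 5 and between 45.0 and 50.9 CPM in the other Ant-134 mice, and its log2 fold change was -0.060 without that library.

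The β subunits are needed for receptor assembly and form the other part of the GABA site. Gabrb1, the more abundant of the pair followed here (12.8 FPKM), was at 173, 185, 175, 197 and 179 CPM in Ant-134 mice and at 168, 170.0, 167 and 191 CPM in Scr mice. Scr replicate 4 lay well above the other Scr mice and within the Ant-134 range. The log2 fold change was 0.064 ± 0.052 (interval -0.047 to 0.18, exact permutation p = 0.270). Without Scr replicate 4 it was 0.11, with an unadjusted p of 0.0426 in edgeR. Gabrb2 (10.02 FPKM) had a log2 fold change of -0.023 ± 0.17 and was the more variable, from 52.2 CPM in Ant-134 replicate 1 to 82.8 CPM in Ant-134 replicate 4.

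The γ subunits anchor receptors at synapses. Gabrg3 was at 25.4, 25.8, 28.01, 26.5 and 26.8 CPM in Ant-134 mice and at 25.5, 23.4, 28.6 and 27.3 CPM in Scr mice, so that Scr mice held both the highest and the lowest value. The log2 fold change of 0.018 had an interval of -0.12 to 0.16. Gabrg1, a subunit of glia and of limbic nuclei, was at 14.3 ± 2.00 CPM in Ant-134 mice (SD, n = 5) and 13.2 ± 0.576 CPM in Scr mice (SD, n = 4), with its highest value, 17.6 CPM, in Ant-134 replicate 5. Its log2 fold change of 0.12 was 0.034 without that mouse.

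The δ subunit makes receptors outside the synapse that carry tonic inhibition, above all in dentate granule cells. Gabrd was at 23.7, 28.1, 32.8, 22.8 and 25.9 CPM in Ant-134 mice and 30.5, 24.2, 25.3 and 22.1 CPM in Scr mice. Both groups spread over the same range, and the log2 fold change was 0.062 ± 0.11 (exact permutation p = 0.651). Gabre, Gabrq and Gabrr2 encode the ε, θ and ρ2 subunits, of which ε and θ are best known from hypothalamus and brainstem and ρ2 from retina. Gabre rested on 6 to 39 counts a library and Gabrr2 on 5 to 21. Gabre was at 0.722 ± 0.435 CPM against 0.382 ± 0.169 CPM (log2 fold change 0.89 ± 0.45, exact permutation p = 0.222), and its highest values were in Ant-134 replicates 5 and 1, with 1.29 and 1.07 CPM. Gabrq reached 4.93 CPM in Ant-134 replicate 5 and was at 0.819 to 2.63 CPM in the other Ant-134 mice and 1.19 to 2.29 CPM in Scr mice. Without Ant-134 replicate 5 its log2 fold change was -0.37. Gabrr2 had a log2 fold change of -0.19 ± 0.39.

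**Figure D2:**
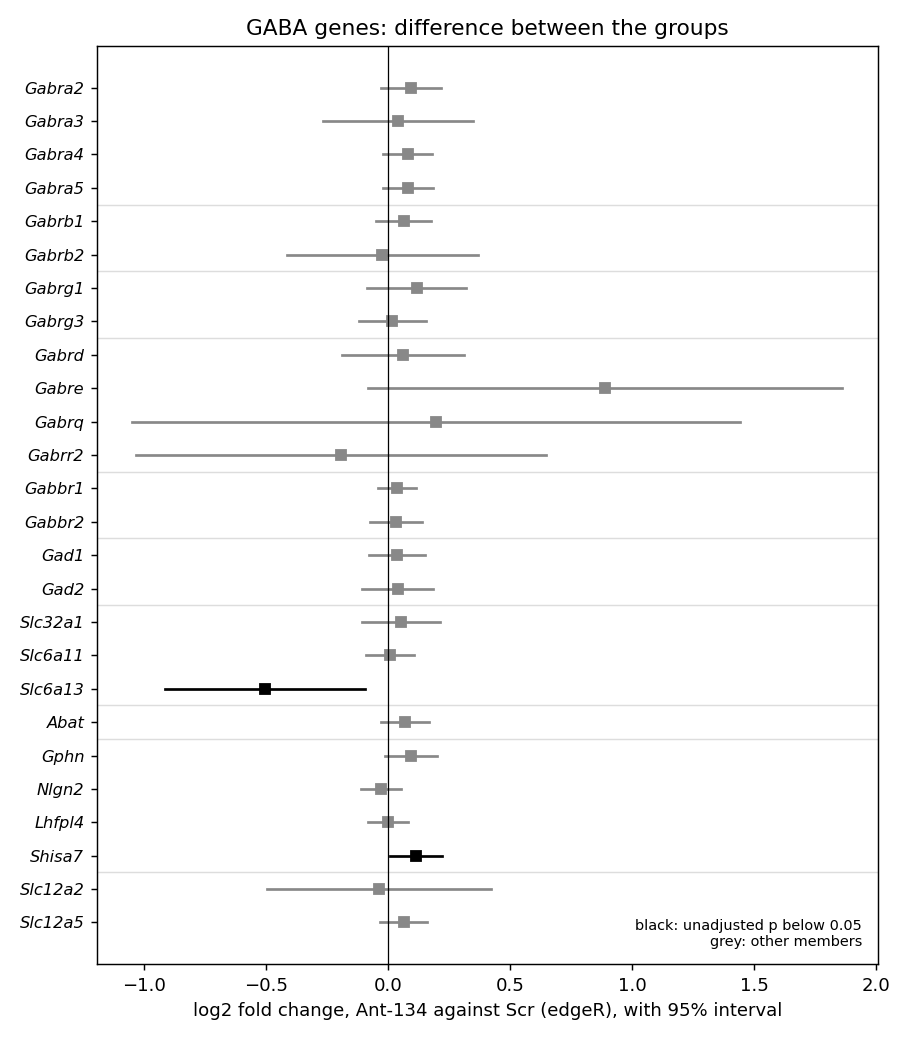
Log2 fold change of Ant-134 against Scr (squares) with the 95% interval of edgeR's quasi-likelihood fit (lines) for the 26 GABA genes, with black for an unadjusted p below 0.05. Shisa7 lies above 0 and Slc6a13 below, and the intervals of Gabre, Gabrq and Gabrr2, which have few counts, are the widest.

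The genes sit partly in clusters. Gabrg1, Gabra2, Gabra4 and Gabrb1 lie together on mouse chromosome 5, where the log2 fold changes were 0.12, 0.094, 0.082 and 0.064. Gabra4 and Gabrb1 share 46 exonic bases on opposite strands. Gabra5 and Gabrg3 lie on chromosome 7, the chromosome of Ube3a, with log2 fold changes of 0.082 and 0.018. Gabre, Gabra3 and Gabrq lie on the X chromosome. In this last cluster all 3 genes were highest in Ant-134 replicate 5.

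GABAB receptors are obligate pairs of a GABA-binding subunit, Gabbr1, and a subunit that couples to G proteins, Gabbr2. Gabbr1 was at 688, 699.6, 711, 718 and 724 CPM in Ant-134 mice and at 681, 695, 678 and 706 CPM in Scr mice. The groups overlapped within a narrow range, with a log2 fold change of 0.037 ± 0.037 and an interval of -0.043 to 0.12. Gabbr2 was at 309.8 ± 18.2 CPM against 303 ± 12.6 CPM (log2 fold change 0.033 ± 0.050). The FPKM ratio of Gabbr1 to Gabbr2 was 1.98 ± 0.150 in Ant-134 and 1.97 ± 0.0997 in Scr mice, and the log2 difference of the ratio, on CPM, was 0.0050 (two-sided exact permutation p = 0.944, adjusted over 3 ratios 0.960). Ant-134 replicate 5 stood apart in this pair, with the highest Gabbr1 and the lowest Gabbr2 of all mice.

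GABA is made by both glutamate decarboxylases, Gad1 for the bulk of the transmitter and Gad2 at nerve endings, and is packed into vesicles by Slc32a1 (VGAT). Gad1 was at 244, 263, 236, 248 and 263 CPM in Ant-134 mice and at 233, 234, 239 and 273 CPM in Scr mice. Scr replicate 4 held the highest value, and the log2 fold change was 0.037 ± 0.054 (interval -0.079 to 0.15, exact permutation p = 0.508). Gad2 was at 144 ± 10.1 CPM against 140.1 ± 13.99 CPM, and Slc32a1 at 70.4 ± 5.54 CPM against 67.9 ± 7.62 CPM, with log2 fold changes of 0.039 ± 0.068 and 0.052 ± 0.074. Single Scr mice moved these values, since the log2 fold change of Gad1 was 0.010 without Scr replicate 1 and 0.095 without Scr replicate 4, that of Slc32a1 0.0080 and 0.13 without the same mice, and that of Gad2 -0.021 without Scr replicate 2 and 0.090 without Scr replicate 4. The FPKM ratio of Gad1 to Gad2 was 1.34 ± 0.0370 in Ant-134 and 1.35 ± 0.0924 in Scr mice (exact permutation p = 0.960). Of the exonic bases of Slc32a1, 24.9% overlap the antisense gene Gm14205, whose reads cannot be told apart from its own where strand was not used in counting, which the sources used here do not give.

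These genes mark GABAergic neurons, and the part of cell number in their levels was not tested. Of 14 interneuron marker genes, 0 reached an unadjusted p below 0.05 and 7 had a positive log2 fold change (median -0.017), with summed levels of 526 to 678 CPM in Ant-134 and 550.5 to 644 CPM in Scr mice. The sum was highest in Ant-134 replicate 5 (678 CPM) and Scr replicate 4 (644 CPM). The same libraries were the highest pair for Gad2 (155 and 154 CPM) and for Slc32a1 (78.2 and 77.9 CPM).

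GABA is removed by transporters of the Slc6 family. Slc6a11 (GAT-3), the transporter of astrocyte processes, was at 127.6 ± 5.32 CPM in Ant-134 and 127 ± 5.82 CPM in Scr mice, with a log2 fold change of 0.0081 ± 0.045. Slc6a13 (GAT-2), on chr6:121300227-121337733, is known in brain mainly from the leptomeninges and the blood vessels. It stood at 3.49 FPKM here, whereas Slc6a11 stood at 25.0 FPKM.

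Slc6a13 was the only member with all Ant-134 mice below all Scr mice. It was at 5.15, 10.2, 10.1, 7.66 and 10.1 CPM in Ant-134 mice (169 counts in the lowest library) and at 10.8, 14.2, 10.8 and 13.1 CPM in Scr mice. Most Ant-134 mice lay just under the lowest Scr mice, and Ant-134 replicates 1 and 4 lay well below. The means were 8.63 ± 2.21 CPM (SD, n = 5) and 12.2 ± 1.71 CPM (SD, n = 4), a log2 fold change of -0.50 ± 0.19 with an interval of -0.91 to -0.096. The unadjusted p was 0.0200 and the adjusted p 0.998 in edgeR, and the two-sided exact permutation p was 0.0317, where the smallest possible is 0.00794. The unadjusted p was below 0.05 in 7 of the 9 analyses that each left out 1 library.

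Several values moved with Slc6a13. Ant-134 replicates 1 and 4, its lowest libraries, had high Xist, as did Scr replicate 3, at 10.8 CPM at the low end of the Scr mice. With the Y-linked level as a covariate its log2 fold change was -0.48 (edgeR unadjusted p = 0.00179). Without Scr replicate 2, the library with the highest Slc6a13, the unadjusted p was 0.0596, and without Scr replicate 4 it was 0.0517, with log2 fold changes of -0.42 and -0.47. Without the libraries richest in choroid plexus genes, Ant-134 replicate 1 and Scr replicate 3, the log2 fold change was -0.42 (edgeR unadjusted p = 0.00564). This last alternative was chosen after seeing the data.

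Of 12 meningeal fibroblast genes, 0 had a positive log2 fold change and 6 were lower at an unadjusted p below 0.05, with a median log2 fold change of -0.43. Over all genes tested 2.69% were lower at this threshold, and the smallest adjusted p of the list in edgeR was 0.987. The log2 fold changes ran from -0.87 (Igf2) to -0.044 (Aldh1a2), and the list was chosen with earlier results of these data known. The summed level of the 12 genes was 134 to 247 CPM in Ant-134 mice and 206 to 271 CPM in Scr mice. Scr replicate 2 was the highest in both this sum and Slc6a13. Scr replicates 4, 3 and 1 followed it in that order in both, although replicates 3 and 1 were both at 10.8 CPM in Slc6a13. Ant-134 replicate 2 was the highest Ant-134 mouse in both. The order of the other Ant-134 mice differed. Ant-134 replicate 3 had the lowest sum (134 CPM) with Slc6a13 at 10.1 CPM, and Ant-134 replicate 1, lowest in Slc6a13, had a sum of 173 CPM. Lum, a collagen-binding proteoglycan of these cells, had a log2 fold change of -0.48 ± 0.16, and Igf2, a growth factor of meninges and choroid plexus, of -0.87 ± 0.24. Of 10 endothelial and mural genes 0 had a positive log2 fold change and 0 reached the threshold, with summed levels of 250.4 to 307 CPM against 260.3 to 359 CPM. The part of these cells in the Slc6a13 difference was not tested.

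**Figure D3:**
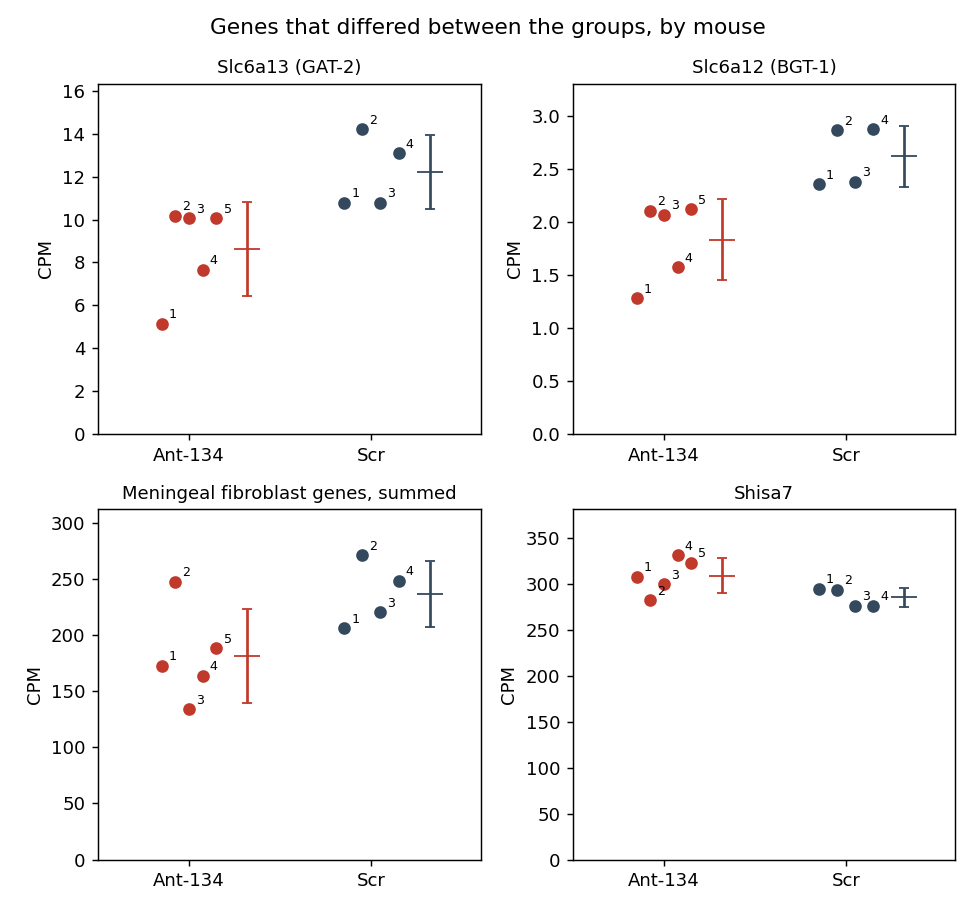
CPM of Slc6a13, Slc6a12 and Shisa7 and the summed CPM of 12 meningeal fibroblast genes in each mouse, with replicate numbers beside the points and mean ± SD as bars (Ant-134 n = 5, Scr n = 4). The groups do not overlap for Slc6a13 and Slc6a12 and overlap for the meningeal sum and Shisa7.

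Abat, the mitochondrial transaminase that breaks GABA down and the target of vigabatrin, was at 222, 224, 236, 229 and 219 CPM in Ant-134 mice and at 221, 199, 216 and 225 CPM in Scr mice. Only Scr replicate 2 lay apart, at the low end. The log2 fold change was 0.070 ± 0.045, with an interval of -0.027 to 0.17 (exact permutation p = 0.111).

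The proteins that hold GABAA receptors at the inhibitory synapse were led by Nlgn2, the neuroligin of inhibitory contacts, at 57.1 FPKM. Shisa7, an auxiliary subunit of GABAA receptors, stood at 44.5 FPKM, Lhfpl4 (GARLH4), which links γ-containing receptors to neuroligin, at 27.0 FPKM, and the scaffold gephyrin, Gphn, at 18.9 FPKM. Nlgn2 was at 331 ± 7.58 CPM against 338 ± 8.23 CPM and Lhfpl4 at 159 ± 3.51 CPM against 159 ± 4.32 CPM, with log2 fold changes of -0.029 ± 0.039 and 0.00050 ± 0.039. Both were among the least variable members, and their 95% intervals ran from -0.11 to 0.054 and from -0.082 to 0.083. Gphn had a log2 fold change of 0.094 ± 0.050 (exact permutation p = 0.103).

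Shisa7 (chr7:4825552-4844696, minus strand) was at 308, 282, 299, 331 and 323 CPM in Ant-134 mice and at 294, 293, 276 and 276 CPM in Scr mice. All Ant-134 mice but replicate 2 lay above every Scr mouse, so the groups overlapped by that mouse. The log2 fold change was 0.11 ± 0.050 (SE), with an interval of 0.0072 to 0.22, an unadjusted p of 0.0381 and an adjusted p of 0.998 in edgeR, and an exact permutation p of 0.0714. The unadjusted p stayed below 0.05 in 4 of the 9 analyses that each left out 1 library, and rose to between 0.0547 and 0.0969 in edgeR without Ant-134 replicate 1, 4 or 5 or Scr replicate 3 or 4. It was 0.0508 with the Y-linked covariate and 0.123 without the libraries richest in choroid plexus genes. Ant-134 replicate 4, highest in Shisa7, was the highest of the 9 mice in 7 members, the others being Gabra2, Gabra4, Gabra5, Gabrb1, Gabrb2 and Gphn.

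**Figure D4:**
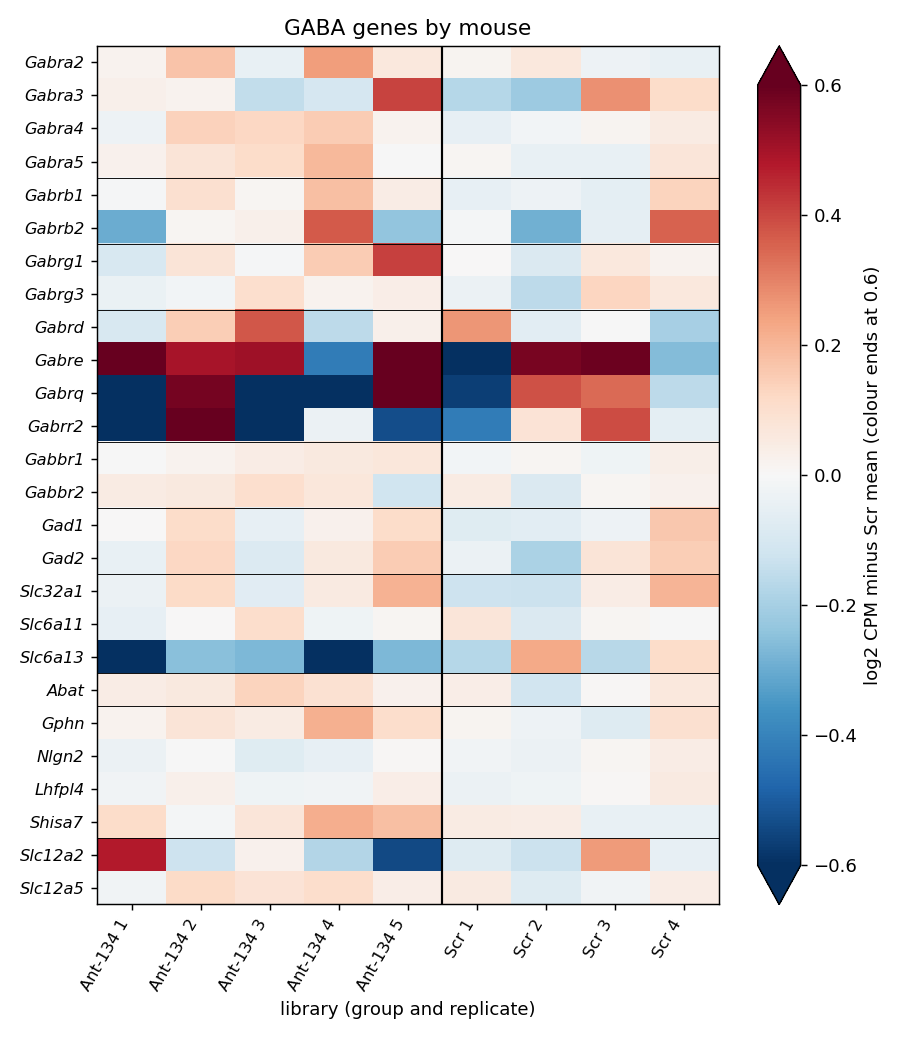
Log2 CPM of each GABA gene in each mouse minus the mean of the 4 Scr mice, with red for higher and blue for lower and the colour scale ending at 0.6. Slc6a13 is blue in every Ant-134 mouse, Ant-134 replicate 4 is red over most α and β subunits, and the rare subunits Gabre, Gabrq and Gabrr2 swing widely in both groups.

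Single mice often held the extremes. Ant-134 replicate 5 was the highest of the 9 mice in 7 members (Gabra3, Gabrg1, Gabre, Gabrq, Gabbr1, Gad2 and Slc32a1) and the lowest in Gabbr2 and Slc12a2. Scr replicate 2 was the lowest in 8 members and Scr replicate 1 the highest in 0. The median SD within groups was 0.090 on the log2 scale for the 26 genes and 0.094 for 64 other genes of GABA signalling described below. It was 0.118 for all genes with a mean of at least 1 CPM, a set not matched to the members in level.

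KCC2 (Slc12a5) extrudes chloride from mature neurons and NKCC1 (Slc12a2) imports it, also in glia and choroid plexus. Slc12a5 was at 486, 534, 522, 530.1 and 506 CPM in Ant-134 mice and at 513, 467, 485 and 509 CPM in Scr mice. The groups overlapped, with a log2 fold change of 0.064 ± 0.044 and an interval of -0.031 to 0.16 (exact permutation p = 0.159). Slc12a2 was at 143, 94.6, 105, 91.5 and 71.0 CPM in Ant-134 mice and at 97.8, 94.3, 123 and 99.7 CPM in Scr mice, with a log2 fold change of -0.036 ± 0.20.

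Slc12a2 was highest in Ant-134 replicate 1 and Scr replicate 3, the libraries with the highest choroid plexus sums. Among the Ant-134 mice, replicates 3 and 2 came next in both, with choroid plexus sums of 926 and 450 CPM. Not all libraries kept the order. Scr replicate 2, whose sum of 1355 CPM only Ant-134 replicate 1 and Scr replicate 3 exceeded, had the lowest Slc12a2 of the Scr mice. Ant-134 replicate 5, lowest in Slc12a2, had a sum of 189 CPM against 177 CPM in Ant-134 replicate 4 and 203 CPM in Scr replicate 4. The summed level of 10 oligodendrocyte genes was also highest in Ant-134 replicate 1 (13262 CPM) and lowest in Ant-134 replicate 5 (7801 CPM). What these cells add to the Slc12a2 level was not tested. The FPKM ratio of Slc12a5 to Slc12a2 was 4.72 ± 1.19 in Ant-134 mice (2.97 to 6.25) and 4.21 ± 0.517 in Scr mice (3.45 to 4.59). The log2 difference on CPM was 0.13 (exact permutation p = 0.579, adjusted over 3 ratios 0.960). It was 0.019 without Ant-134 replicate 5, 0.038 without Scr replicate 3 and 0.29 without Ant-134 replicate 1 (exact permutation p = 0.0857).

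**Figure D5:**
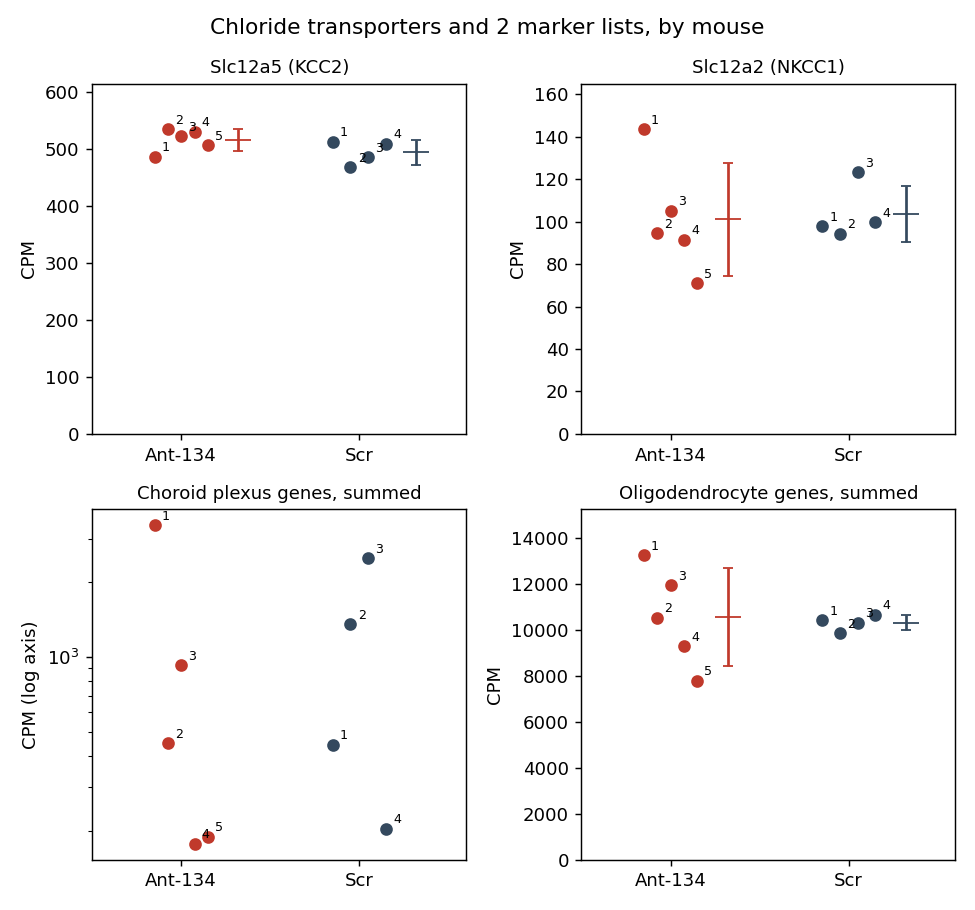
CPM of Slc12a5 and Slc12a2 and the summed CPM of choroid plexus (log axis) and oligodendrocyte genes in each mouse, with replicate numbers beside the points and mean ± SD as bars on the linear axes. Slc12a2 and the choroid plexus sum share their highest libraries, Ant-134 replicate 1 and Scr replicate 3.

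Other genes of GABA signalling were taken from 5 lists with 71 genes, of which 69 were in the table and 64 were tested. Of these 0 were higher and 5 lower in Ant-134 mice at an unadjusted p below 0.05 (7.81%, against 4.18% of all genes), with a median log2 fold change of 0.0089. Slc6a12 (BGT-1), a betaine and GABA transporter that lies near Slc6a13 on chromosome 6, had a log2 fold change of -0.52 ± 0.18 (edgeR unadjusted p = 0.0115). It was at 1.28, 2.11, 2.06, 1.57 and 2.12 CPM in Ant-134 mice and 2.35, 2.86, 2.38 and 2.87 CPM in Scr mice, so the groups did not overlap (exact permutation p = 0.0159). As with Slc6a13, Ant-134 replicates 1 and 4 were lowest and Scr replicates 2 and 4 highest.

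Ano1, a calcium-activated chloride channel of mural and other smooth muscle cells, was at 2.71 ± 0.149 CPM against 3.72 ± 0.197 CPM without overlap, with a log2 fold change of -0.46 ± 0.12. Its unadjusted p in edgeR was 0.00228 and its exact permutation p 0.00794, the smallest possible. Slc38a3, a glutamine transporter of astrocytes, was at 68.9 ± 4.46 CPM against 76.9 ± 3.50 CPM and Slc6a6, the taurine transporter, at 164 ± 11.9 CPM against 180.2 ± 9.90 CPM. Kctd12b, of a family that binds GABAB receptors, was at 4.59 ± 0.646 CPM against 5.81 ± 0.772 CPM. Slc38a3, Slc6a12 and Ano1 kept an unadjusted p below 0.05 in edgeR when any single library was left out, whereas Slc6a6 lost it without Ant-134 replicate 1 or 5 or Scr replicate 1 or 3, and Kctd12b without Ant-134 replicate 3 or Scr replicate 2 or 3. Among the 28 genes of receptor trafficking and scaffold 0 reached the threshold and 18 had a positive log2 fold change, with a median of 0.034. Of 10 microglial genes 0 had a positive log2 fold change and 4 were lower at an unadjusted p below 0.05, where 2.69% of all genes were lower. The smallest adjusted p of this list in edgeR was 0.952. The summed levels of the 10 genes, 409 to 452 CPM in Ant-134 and 462 to 525 CPM in Scr mice, did not overlap. The part of these cells in the differences of the GABA genes, Slc6a13 among them, was not tested.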

How the data were processed

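RNA-seq of 9 hippocampi (5 Ant-134, 4 Scr) was analysed, grouped by the sample titles. Per the labels and methods, the authors called bases with CASAVA 1.8, mapped clean reads to GRCm38 (mm10) with HISAT2 2.0.5 and counted them with featureCounts 1.5.0-p3. They deposited raw counts per gene and FPKM (fragments per kilobase and library size). Whether counting used strand is not given in the sources used here.

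Counts were tested with edgeR 4.0.16 (R 4.3.3; quasi-likelihood with robust estimation, filterByExpr with a minimum count of 10, TMM, no covariate), with Benjamini-Hochberg adjustment over all genes tested. Standard errors come from the F statistic. Levels are TMM-normalized CPM. Exact permutation tests used all 126 splits. The floor of 3 counts covers counting error only. Alternatives were DESeq2 1.42.0, other scalings and filters, limma 3.58.1 on FPKM (log2 scale, pseudocounts 1 and 0.1), a Y-linked covariate, a replicate block and leaving out single libraries. Scripts were tested on simulated data.

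The members, the 5 further lists and 14 marker lists were chosen with earlier results of these data known. Every member is named. Values per mouse are given for members with an unadjusted p below 0.05 and for the most abundant member of each other role group. Slc12a2, Lum and Igf2 were added after their values were seen. Genes counted as called in further lists are named where 5 or fewer.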

Additional observations from a re-analysis of the deposited data

Results flagged for a closer look

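In 58 groups of 4 or 5 mice, formed by the 26 genes and 3 ratios in each treatment, 5 held a mouse whose gap to the nearest other was large against the range of its group, where chance gives about 2.9 on average. The groups are not independent, since the ratios reuse values of the genes and all genes share the same mice. For this reason 5 and 2.9 were not compared by a test. Gabra3 was 66.0 CPM in Ant-134 replicate 5, with the other Ant-134 mice at 45.0 to 50.9 CPM. Gabbr2 was 278 CPM in the same mouse, with the others at 313 to 325 CPM, and its CPM ratio of Gabbr1 to Gabbr2 was 2.60, with the others at 2.19 to 2.26. Gabrb1 was 191 CPM in Scr replicate 4, with the other Scr mice at 167 to 170.0 CPM. Gad1 was 273 CPM in Scr replicate 4, with the others at 233 to 239 CPM.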

How the results depend on the processing

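Over all genes, 294 higher calls became 564 with no filter, 462 and 475 with limma on log2(FPKM + 1) and log2(FPKM + 0.1), 580 with limma and no filter, 186 without the choroid-rich libraries, and 194 to 386 without single libraries. The 533 lower calls became 1211 with no filter, 981 with limma and no filter, and 435 to 704 without single libraries. Adjusted calls, 0 at first, were 16 in DESeq2 with no filter, 14 in edgeR with no filter, 2 with the replicate block, 18 without the choroid-rich libraries and 0 to 17 without single libraries. In the GABA genes the higher calls were 2 with no filter and with the block, 0 with the Y-linked covariate and without the choroid-rich libraries, and 0 to 2 without single libraries, and the lower calls 0 to 1. Same-numbered mice did not deviate together (correlations -0.15 to 0.053), which shows no pairing by number but cannot exclude it. The study calls the Scr mice littermates. Which mice shared a litter is not given in the sources used here, so litter was not modelled. The replicate block also takes out Ant-134 replicate 5, which has no partner. With it, log2 fold changes changed sign in Gabra3 (-0.048), Gabrb2 (0.030), Gabrq (-0.45), Lhfpl4 (-0.0087), Slc12a2 (0.051), the Gad1 to Gad2 ratio (0.0077) and the Gabbr1 to Gabbr2 ratio (-0.041), all of which also changed sign when that mouse alone was left out. With the block the unadjusted p of Shisa7 in edgeR was 0.107. Signs also changed in Lhfpl4 with no filter (-2.35e-04) and with at least 10 counts in every sample (-0.0020), in Gabrq with log2(FPKM + 0.1) (-0.028), and in Gabrb2 (0.019) and Gabrr2 (0.080) without the choroid-rich libraries. Without single libraries, signs changed within Gabra3 (-0.060 to 0.14), Gabrb2 (-0.13 to 0.11), Gabrg3 (-0.033 to 0.063), Gabrd (-0.023 to 0.15), Gabrq (-0.37 to 0.39), Gad2 (-0.021 to 0.090), Slc6a11 (-0.020 to 0.030), Lhfpl4 (-0.014 to 0.019), Slc12a2 (-0.20 to 0.067), the Gad1 to Gad2 ratio (-0.038 to 0.040) and the Gabbr1 to Gabbr2 ratio (-0.041 to 0.038). Without a sign change, single libraries moved Gabra2 (0.051 to 0.13), Gabra5 (0.052 to 0.11), Gabrb1 (0.033 to 0.11), Gabre (0.58 to 1.10), Gabbr2 (0.0047 to 0.069), Abat (0.033 to 0.092), Gphn (0.061 to 0.13), Slc12a5 (0.039 to 0.084), Nlgn2 (-0.041 to -0.014) and Gabrr2 (-0.57 to -0.054) by over 1.5 times. Except where these analyses lacked samples, the cause was not tested. An unadjusted p below 0.05 in edgeR was gained by Gabra2 without Ant-134 replicate 3, Gabra4 and Gphn without Ant-134 replicate 1, Gabra5 without Ant-134 replicate 5, Gabre with no filter and without Ant-134 replicate 4, and Gabrb1 and Gphn without Scr replicate 4. With the block the higher calls were Gabra4 and Gabra5, and not Shisa7. Beyond single libraries, Slc6a6 also lost an unadjusted p below 0.05 with the block and without the choroid-rich libraries, and Kctd12b with limma and no filter and without the choroid-rich libraries. On log2(FPKM + 1), whose pseudocount shrinks changes of genes with low FPKM, the log2 fold change was 0.090 for Gabre, 0.030 for Gabrq, -0.030 for Gabrr2, 0.072 for Gabrg1, -0.22 for Slc6a12, -0.15 for Ano1, -0.17 for Kctd12b, -0.29 for Lum and -0.20 for Igf2. The unadjusted p of Slc6a13 was between 0.00179 and 0.0596 over all alternatives. Gabre and Gabrr2 have no value with at least 10 counts in every sample. Gabrr2 and Gabre, with as few as 5 and 6 counts, are limited by depth.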
